A study of Mus musculus with 3 samples.

Results

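Triple null embryos of stage E10.5, MafF-/-:MafG-/-:MafK-/-, were set against MafF-/-:MafG+/+:MafK-/- embryos collected a day earlier in development, at E9.5, to see what differed beyond a general resemblance of the triple null pool to the younger stage. The pair was chosen by genotype and stage from the labels and takes 2 of the 3 arrays. The remaining array, MafF-/-:MafG+/+:MafK-/- at E10.5, gives a level beside each gene and enters none of the pair's counts of genes apart; a gene counted as detected on any array may be detected on that one. All groups lack MafF and MafK, and no embryo with an intact MafF or MafK gene was used here. Each array was hybridised with Cy3-labelled RNA of 3 pooled whole embryos of mixed background. Stage and MafG genotype differ together in this pair, so their parts in a difference cannot be told apart. There is 1 array per group, so no difference has a replicate error, none was tested, and "higher" and "lower" describe these arrays. In bulk RNA of whole embryos, fewer cells of a type and less RNA per cell cannot be told apart.

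The small Maf proteins MafF, MafG and MafK are bZIP factors without a transactivation domain of their own. They bind DNA as partners of the CNC factors, such as p45 NF-E2 and NRF2, and of the BACH factors. The NF-E2 heterodimer drives genes of late megakaryocytes, which shed platelets, and binds regulatory sites of the globin loci. NRF2 heterodimers activate antioxidant genes, and BACH1 heterodimers repress the haem oxygenase gene Hmox1. Maff, Mafg and Mafk overlap in function, so that the loss of all of them is more severe in the embryo than the loss of any alone.

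Of 12521 genes well above background on both arrays of the pair, 98 were at least 2-fold apart (0.783%). In the triple null pool 32 of them were the higher ones (0.256% of genes) and 66 the lower ones (0.527%). Levels are given as log2 signal minus the 75th percentile of the array, so a level of 0 is the signal at that percentile, and a difference is the triple null level minus the E9.5 level. The central 95% of genes lay between -0.48 and 0.45, the median was 0.005 and the root mean square difference was 0.25. Genes at least 2-fold apart were mostly dim. Their median level was -2.90 for the higher and -4.33 for the lower genes, beside -0.54 for all genes tested, and at or above that median level 11 genes were 2-fold apart, 8 higher and 3 lower. Spots of probes printed 10 times gave a median SD of the difference of 0.42 at levels under -6 and of 0.05 at the brightest levels; this error holds printing and scanning, and no variation between embryos. With normexp background correction, which compresses dim signals, 27 of the 98 genes were still at least 2-fold apart and all 98 kept their direction. The 75th percentiles were 1078 for the triple null and 1064 for the E9.5 array, and 69.2% and 69.1% of probes were well above background, so the arrays of the pair were alike in brightness.

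**Figure D1:**
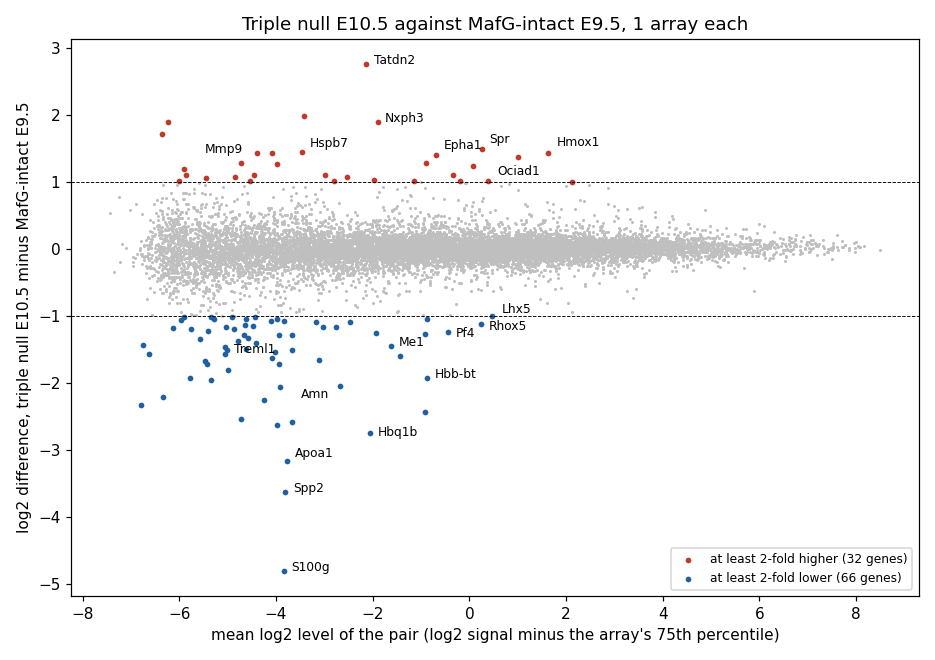
Log2 difference of each of 12521 genes (vertical axis, triple null E10.5 minus MafG-intact E9.5) against its mean log2 level over the pair (horizontal axis), 1 point per gene. The 32 genes at least 2-fold higher are red and the 66 at least 2-fold lower blue, dashed lines mark 2-fold, and most coloured points lie at levels under 0, with S100g, Spp2 and Apoa1 lowest.

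The targeted gene followed its label. The level of Mafg was -7.74 on the triple null array, not well above background, against 1.03 at E9.5 and 0.48 in the MafG-intact E10.5 pool. That made Mafg at least 253-fold lower than at E9.5. Maff and Mafk differed by -0.14 and -0.16 within the pair. It is not known if their probes match deleted sequence, so neither gene serves as a check.

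The pools of the pair were alike in sex-linked transcripts. Xist, transcribed from the inactive X chromosome, was not well above background on either array of the pair, and the Y-linked genes Eif2s3y, Kdm5d, Uty and Ddx3y differed by 0.05, 0.02, 0.12 and 0.23. The MafG-intact E10.5 pool had the opposite pattern, with Xist at 0.18 and each of these 4 Y-linked genes not above background, so the levels given for it below come from a pool with other sex-linked transcripts.

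The lowest genes of the pair, S100g, Spp2 and Apoa1, are genes of absorptive and secretory endoderm, such as that of the visceral yolk sac, which takes up maternal nutrients and secretes carrier proteins before the liver does. The yolk sac endoderm list had 16 genes measured on both arrays, of which the triple null pool was lower by 2-fold or more for 5 and higher for none. The median was -0.79, 15 of the 16 lay below 0, and the list ranged from -3.62 to 0.01. Among all genes tested 6074 lay below 0 and 6447 above it.

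Spp2, a secreted phosphoprotein, had levels of -5.62 in the triple null, -2.0 in the E9.5 and -4.78 in the MafG-intact E10.5 pool, and was 12.3-fold lower in the triple null than at E9.5. Amn, which carries the cubilin receptor to the apical membrane for uptake, had levels of -3.69, -1.65 and -4.23 in the same order and was 4.11-fold lower. For both genes the E9.5 pool was the high one. The tight junction gene Cldn2 was lower by a difference of -1.95, with levels of -6.32, -4.37 and -6.56. The transthyretin gene Ttr, a thyroid hormone and retinol carrier, differed by -1.71, with levels of -6.28, -4.57 and -5.0. The homeobox gene Rhox5, bright enough to be measured with a spot SD of 0.06, differed by -1.12, with levels of -0.32, 0.80 and -0.37. The triple null and MafG-intact E10.5 levels of Rhox5 were thus within 0.05 of each other.

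Other carrier genes were under 2-fold apart. Rbp4, the plasma retinol carrier, differed by -0.94 from a level of 2.59 at E9.5. Trf, transferrin, differed by -0.84, and Afp, the fetal serum albumin, by -0.73, from levels of -1.95 and 3.76. Some members lay near 0: Tcn2, the transcobalamin gene, differed by 0.01 and the endocytic adaptor gene Dab2 by -0.13. Apoa4 and the glucose transporter gene Slc2a2 were above background at E9.5 and not in the triple null pool. Apoa4 was at least 4.45-fold lower. The 2 probes of Slc2a2 differed by -2.71 and -0.78, so its mean difference of -1.75 is no strict bound. Of the 21 genes of the list 18 were on the array by name.

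Several genes outside this list were also low; they were named after their values were seen. S100g, a calcium-binding protein of absorptive epithelia, was the lowest of all genes tested. Its levels were -6.24 in the triple null, -1.43 at E9.5 and -6.83 in the MafG-intact E10.5 pool, a 27.9-fold lower signal than at E9.5. The intestinal zinc transporter gene Slc39a4 had levels of -2.24, -0.64 and -2.25, a difference of -1.60. The apical scaffold gene Pdzk1 differed by -1.66, the galectin gene Lgals2 by -1.72, the uromodulin gene Umod by -1.67 and the X-linked gene Trap1a by -1.63. In each of these 6 genes the level of the MafG-intact E10.5 pool was also below that of the E9.5 pool, and for S100g and Slc39a4 the levels in the triple null and MafG-intact E10.5 pools differed by 0.60 and 0.02.

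In the lipoprotein list both arrays measured 8 apolipoprotein genes, of which 3 were at least 2-fold lower and 7 lay below 0, with a median of -0.41, and 5 assembly genes, none of them 2-fold apart and with a median of 0.12. Over all 13 the median was -0.25, and it was -0.10 with normexp and -0.14 with the brightest probe of each gene. Apoa1, the main protein of high-density lipoprotein, had levels of -5.36 in the triple null, -2.19 at E9.5 and -4.08 in the MafG-intact E10.5 pool, and was 8.98-fold lower. Apom and Apoa2 differed by -1.27 and -1.09. Apoa2 was higher in the MafG-intact E10.5 pool, at -1.30, than at E9.5, at -1.92, and the triple null level was below both, at -3.01. Apoe, an apolipoprotein of remnant particles, differed by -0.07, and Mttp, which loads lipid onto apolipoprotein B, by -0.14.

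**Figure D2:**
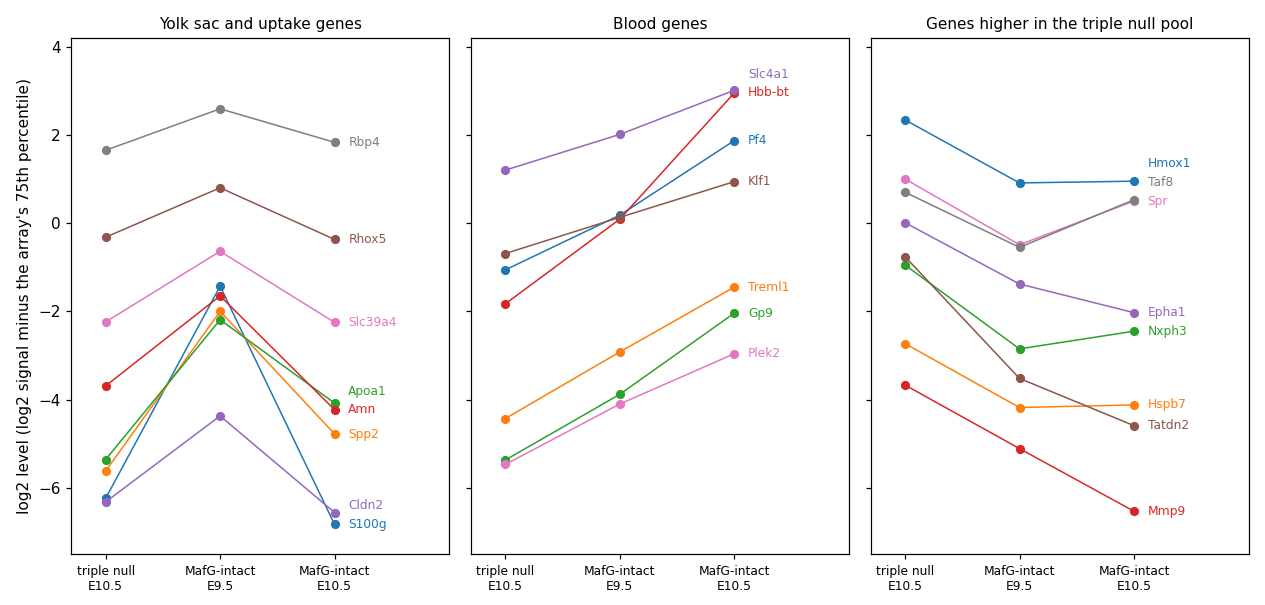
Log2 levels (signal minus the 75th percentile of the array) of chosen genes on the 3 arrays, with lines joining the values of 1 gene and standing for no time course. Yolk sac and uptake genes (left) peaked in the E9.5 pool, blood genes (middle) were lowest in the triple null pool, and the genes on the right, such as Hmox1 and Spr, were highest in it.

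The summed signal of the yolk sac list, in units of the 75th percentile of each array, was 13.9 in the triple null, 23.9 in the E9.5 and 25.7 in the MafG-intact E10.5 pool. In the same order the summed signal of its uptake receptors was 0.548, 0.857 and 0.538, and that of its secreted carriers 11.9, 20.6 and 23.9. The list and carrier sums are mostly the signal of the bright genes Afp and Rbp4. Levels of Afp were 3.03, 3.76 and 4.28 in that order, highest in the MafG-intact E10.5 pool, and those of Rbp4 were 1.65, 2.59 and 1.83. These sums therefore say little of the dimmer members. The amount of yolk sac tissue in each pool was not measured, and its part in these differences was not tested. With normexp correction Spp2 (-1.87), Amn (-1.51), Rhox5 (-1.09), Apoa1 (-1.79), Apom (-1.17), S100g (-2.64), Slc39a4 (-1.38) and Pdzk1 (-1.10) stayed at least 2-fold lower. Cldn2 (-0.72), Ttr (-0.51), Apoa2 (-0.86), Lgals2 (-0.90), Umod (-0.57) and Trap1a (-0.79) did not, and the median of the yolk sac list came to -0.39.

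Extraembryonic trophoblast genes lay more often below 0 than above it. Of 9 such genes above background on both arrays 7 lay below 0, and the median was -0.15. The X-linked homeobox genes Rhox6 (-1.29) and Rhox9 (-1.28) were at least 2-fold lower, from levels of -4.01 and -3.30 at E9.5. Esx1, another X-linked homeobox gene of the placenta, was at least 2.52-fold lower. In the MafG-intact E10.5 pool Rhox6 and Rhox9 were at -4.88 and -4.11, also below E9.5. Esx1 was not above background there. With normexp Rhox6 and Rhox9 came to -0.50 and -0.77. The summed signal of the list was 2.55 in the triple null and 2.75 at E9.5. For maternal decidua the 8 genes had a median of -0.05 and summed signals of 3.50 and 3.49.

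Some platelet and megakaryocyte genes were lower than at E9.5. Of 18 genes measured on both arrays 3 were lower by 2-fold or more, none was higher by as much, 15 lay below 0, and the median was -0.56. Pf4, a chemokine of the platelet alpha granule, had levels of -1.06 in the triple null, 0.18 at E9.5 and 1.87 in the MafG-intact E10.5 pool, a difference of -1.24 with a spot SD of 0.07. Treml1, an alpha granule receptor, had levels of -4.43, -2.92 and -1.45 in the same order, a difference of -1.51. Gp9, a subunit of the receptor for von Willebrand factor, had levels of -5.37, -3.88 and -2.04, a difference of -1.49. For these 3 genes the triple null level was the lowest of the 3 and the E9.5 level lay between.

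The other members followed by role. Among surface receptors Gp1ba, another subunit of that receptor, differed by -1.0 and was just short of 2-fold, and the integrin gene Itga2b differed by -0.50. The signalling and cytoskeletal genes Fermt3, Plek and Tbxas1 each differed by -0.94. The granule chemokine gene Ppbp and the receptor gene Gp5 were not above background in the triple null pool and were at least 2.73-fold and at least 2.29-fold lower than at E9.5. Clec1b, Vwf and Gp1bb differed by 0.05, 0.02 and 0.01. The summed signal of the list was 2.79 in the triple null, 3.74 at E9.5 and 7.94 in the MafG-intact E10.5 pool. With normexp Pf4 (-1.14) stayed at least 2-fold lower, Treml1 (-0.90) and Gp9 (-0.55) did not, and the median was -0.24.

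Red cell genes were lower for some members. All 7 measured globins lay below 0 with a median of -0.62, and 3 were at least 2-fold lower. Hbb-bt, an adult beta-globin gene, had levels of -1.83 in the triple null, 0.09 at E9.5 and 2.95 in the MafG-intact E10.5 pool. Its difference of -1.92 was the mean of 4 probes from -2.38 to -0.86, and transcripts of other beta-globin genes, near-identical in sequence, could add to their signal. The theta-globin genes Hbq1b and Hbq1a, which are near-identical to each other and may share signal, differed by -2.74 and -1.01. The globins of primitive red cells were bright and differed little: Hbb-bh1 was at 7.42 and 7.57, a difference of -0.15, Hbb-y differed by -0.14 and Hba-x by -0.28. The alpha-globin gene Hba-a1, used by primitive and definitive cells, differed by -0.62.

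Of 16 red cell membrane genes 14 lay below 0 and the median was -0.32. Ank1, ankyrin of the membrane skeleton, differed by -0.16. Kel differed by -0.94 and the anion exchanger gene Slc4a1 by -0.80, while the cap protein gene Tmod1, also used in heart muscle, differed by 0.58. The claudin gene Cldn13 was at least 6.13-fold lower, with a level of -4.34 at E9.5 and no signal above background in the triple null pool. Among 17 erythroid regulators none was 2-fold apart and 15 lay below 0, with a median of -0.19. The factor genes Klf1 (-0.82), Gfi1b (-0.78) and Gata1 (-0.47) were on the low side, and Tal1 (-0.20) and Gata2 (-0.05) nearer to 0. Over 13 haem synthesis genes the median was -0.02. The erythroid first enzyme gene Alas2 lay at -0.12 and the mitochondrial transporter gene Abcb10 at -0.67. With normexp Hbb-bt (-1.62) and Hbq1b (-2.15) stayed at least 2-fold lower, and Hbq1a (-0.50) did not.

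White cell genes were dim in both pools. Of 20 macrophage and myeloid genes detected on any array, 9 were not above background in the triple null and 8 not in the E9.5 pool. The 11 above background on both arrays had a median of -0.10 and none was 2-fold apart. Over the 20 genes detected on any array the summed signal was 1.20 in the triple null and 1.29 at E9.5. It was 4.10 in the MafG-intact E10.5 pool. Tyrobp, an adaptor of myeloid receptors, differed by -0.18, and Lyz2, lysozyme, by 0.06. The 25 endothelial genes had a median of -0.05, with Nos3 (0.72) and Tie1 (0.62) highest and Lyve1 (-0.49) lowest.

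Hmox1, which encodes the inducible enzyme that opens the haem ring, stood above both other pools. Its levels were 2.34 in the triple null, 0.91 at E9.5 and 0.95 in the MafG-intact E10.5 pool, so that the other pools lay within 0.04 of each other. The difference of 1.43 (2.69-fold) had a spot SD of 0.06 at this level and came from 1 probe. The constitutive enzyme gene Hmox2 differed by 0.00, and the biliverdin reductase genes Blvra and Blvrb by 0.20 and -0.23.

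Antioxidant genes linked to NRF2 lay on both sides of 0. Of 36 genes 1 was 2-fold apart, and the median was -0.05. Me1, malic enzyme, which makes NADPH, had levels of -2.35 in the triple null, -0.90 at E9.5 and -0.64 in the MafG-intact E10.5 pool, a difference of -1.45 (-1.23 with normexp). Gclm, the regulatory subunit of the enzyme that begins glutathione synthesis, lay on the other side at 0.92, and its catalytic partner Gclc differed by 0.02. Nqo1, Srxn1, Gsr and Txnrd1, which reduce quinones, peroxiredoxins, glutathione and thioredoxin, differed by -0.18, -0.33, -0.40 and -0.12. Keap1, the adaptor that marks NRF2 for degradation, was at 1.48, 2.07 and 2.04, a difference of -0.60, and the NRF2 gene Nfe2l2 differed by -0.07. None of the 17 iron handling genes was 2-fold apart, with a median of -0.10, and the ferritin genes Ftl1 and Fth1 differed by -0.27 and -0.01.

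Heart muscle genes were on the high side in the triple null pool. Of 28 contractile genes above background on both arrays 25 lay above 0, the median was 0.40, and 1 was higher by 2-fold or more. This was Hspb7, a small heat shock protein of the sarcomere, with levels of -2.73 in the triple null, -4.18 at E9.5 and -4.12 in the MafG-intact E10.5 pool, and with probes at 1.39 and 1.52. Among bright sarcomere genes Tnnt2, cardiac troponin T, had levels of 3.82, 3.20 and 2.97, a difference of 0.62. Myh6, an atrial myosin heavy chain, differed by 0.59, Actc1, cardiac actin, by 0.49, and Myh7 by 0.24. Each of these bright genes was under 2-fold apart, and the spot SD at their brightness was 0.05.

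The summed signal of the contractile list was 265 in the triple null, 210 at E9.5 and 168 in the MafG-intact E10.5 pool. Sln, sarcolipin, lay on the low side at -0.60. The 17 cardiac factor genes had a median of 0.17 with 12 above 0, led by the coactivator gene Myocd (0.53), Tbx5 (0.51) and Nkx2-5 (0.43), and Hand1 was at -0.18. Skeletal muscle genes had a median of 0.11 over 22 genes, 0.32 for the 13 contractile and other effector genes and -0.06 for the 9 factor genes. With normexp Hspb7 came to 0.85 and the contractile median to 0.31.

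Neuronal genes were near 0 in this pair. Of 36 neuronal differentiation genes none was 2-fold apart, with a median of 0.05. Over the 38 genes detected on any array the summed signal was 30.5 on both arrays of the pair. It was 86.1 in the MafG-intact E10.5 pool. Tubb3, neuronal tubulin, differed by -0.13 and the neurofilament gene Nefm by 0.10. Among 30 neuronal factor genes the median was -0.11 and Lhx5 was the gene 2-fold apart. Lhx5, a LIM homeobox gene of forebrain and spinal interneurons, had levels of -0.03 in the triple null, 0.97 at E9.5 and 1.33 in the MafG-intact E10.5 pool, 2.01-fold lower than at E9.5 (-0.96 with normexp). All 7 measured LIM homeobox genes lay below 0, with Lhx2 at -0.42 and Lhx1 at -0.12. Neural patterning genes had a median of -0.17 over 19, with 16 below 0, among them Six3 (-0.81) and En2 (-0.55).

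Genes of the growing tail end were also near 0 in this pair. Of 20 tail bud and presomitic mesoderm genes none was 2-fold apart and the median was -0.12. Cdx2, a regulator of the trunk and tail, was at -0.66 in the triple null, -0.96 at E9.5 and -3.94 in the MafG-intact E10.5 pool, and Tbx6 at 0.81, 0.98 and -0.86. Fgf8 differed by -0.34 and the retinoic acid-degrading enzyme gene Cyp26a1 by -0.49. The 11 somite genes had a median of -0.23, with 9 below 0. Of 33 Hox genes the posterior gene Hoxa13, dim at -5.49 and -6.51, was 2-fold apart, at 1.02 (0.21 with normexp), and the median was -0.03. Lin28a, a repressor of let-7 maturation, differed by 0.40 from 1.62 at E9.5, and stood at -0.88 in the MafG-intact E10.5 pool.

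Liver genes lay on both sides of 0. The median of 26 genes was 0.02, and Alb, albumin, and Serpina6, the corticosteroid carrier, were the genes at least 2-fold higher. Alb had levels of -2.30 in the triple null, -3.32 at E9.5 and -0.33 in the MafG-intact E10.5 pool. Serpina6 had levels of -4.03, -5.04 and -0.74, so for both genes the triple null level lay between the others, nearer to E9.5. The complement genes Cfb and C4b and the liver-secreted factor gene Mst1, named after their values were seen, differed by -1.33, -1.08 and -1.28. With normexp Alb came to 0.69 and Serpina6 to 0.43, and Cfb, C4b and Mst1 to -0.52, -0.66 and -0.59, all under 2-fold. The 15 coagulation genes had a median of -0.15, which turned to 0.0236 with the brightest probe of each gene.

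**Figure D3:**
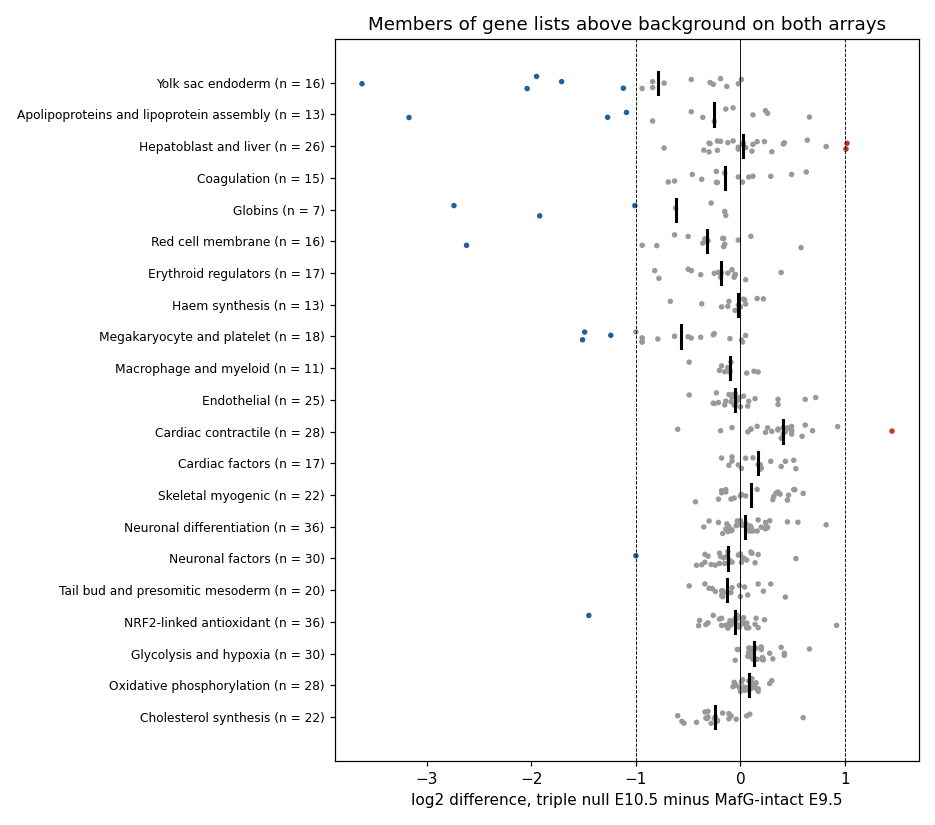
Log2 difference (triple null E10.5 minus MafG-intact E9.5) of the members of 21 gene lists that were above background on both arrays, 1 point per gene, with the median of each list as a black bar. Blue and red points are at least 2-fold apart and n is the number of genes. The yolk sac (-0.79), globin (-0.62) and platelet (-0.56) medians were lowest and the cardiac contractile median (0.40) highest.

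Metabolic groups lay slightly to 1 side of 0. Of 30 glycolysis and hypoxia genes 27 lay above 0 with a median of 0.13, and all 13 glycolytic enzyme genes were between 0.07 and 0.66. The highest was Pfkp, platelet phosphofructokinase, and Bnip3, a mitophagy receptor gene, was at 0.42. Of 28 oxidative phosphorylation genes 23 lay above 0, with a median of 0.08, which was 0.04 with scaling on spike-in probes, where that of the glycolysis list was 0.09. Of 22 cholesterol synthesis genes 19 lay below 0, with a median of -0.25, including Hmgcs1 (-0.54), an early enzyme of the pathway, and Insig1 (-0.60). Fdps, farnesyl diphosphate synthase, lay at 0.60. None of the genes in these 3 lists was 2-fold apart.

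A few well-measured genes outside these groups were higher. Spr, sepiapterin reductase, the last enzyme of tetrahydrobiopterin synthesis, was the highest gene at or above the median level. Its levels were 1.00 in the triple null, -0.49 at E9.5 and 0.50 in the MafG-intact E10.5 pool, a difference of 1.49. The other 7 genes of that list lay between -0.13 and 0.09. Taf8, a subunit of the general factor TFIID, had levels of 0.70, -0.55 and 0.53, a difference of 1.24. Ociad1, a mitochondrial protein gene, differed by 1.38, with probes at 0.93 and 1.83. Kifc5b, a spindle kinesin gene, differed by 1.10, Socs3, a feedback inhibitor of cytokine signalling, by 1.01, and Rtn4 and Laptm4a by 1.02 and 1.00. For Spr, Taf8, Socs3 and Kifc5b the triple null and MafG-intact E10.5 levels were within 0.50 of each other, and the E9.5 pool was the low one.

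Other genes stood above both MafG-intact pools. Epha1, an ephrin receptor gene, had levels of 0.01 in the triple null, -1.38 at E9.5 and -2.03 in the MafG-intact E10.5 pool, a difference of 1.40. Mmp9, gelatinase B, had levels of -3.67, -5.11 and -6.53, a difference of 1.44, with its probes within 0.05 of each other, and the 12 other metalloproteinase and inhibitor genes lay between -0.19 and 0.23. Tatdn2 and Nxph3, named after their values were seen, differed by 2.76 and 1.90, each from 1 probe. Tatdn2, a putative deoxyribonuclease gene, was at -0.76 in the triple null and -3.52 at E9.5, and was the highest gene of the pair. With normexp Spr (1.44), Taf8 (1.27), Ociad1 (1.33), Kifc5b (1.05), Epha1 (1.25), Tatdn2 (2.18) and Nxph3 (1.59) stayed at least 2-fold higher, and Mmp9 (0.66), Socs3 (0.95), Rtn4 (0.92) and Laptm4a (0.99) did not. Ppp1r16b and Cxcr3, a chemokine receptor gene, differed by -2.58 and -2.53, and the kinase gene Sik1 by -1.25. They too were named after their values were seen, and stayed at least 2-fold lower with normexp. Levels in the triple null, E9.5 and MafG-intact E10.5 pools were -4.96, -2.39 and -5.72 for Ppp1r16b and -5.99, -3.46 and -6.11 for Cxcr3. For both the E9.5 pool was the high one. Sik1 was at -2.55, -1.30 and -1.86 in that order, lowest in the triple null pool. Trib3, a pseudokinase gene of the amino acid stress response, was lower by a difference of -1.20 (-0.52 with normexp). It was the gene 2-fold apart among 29 of that list. Its levels were -5.48, -4.28 and -5.93 in the same order, again highest in the E9.5 pool.

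Some genes were above background on 1 array of the pair and so have a bound. Of 188 such genes on the triple null array 25 were at least 2-fold higher, and of 184 on the E9.5 array 42 were at least 2-fold lower. Prim2, the large subunit of primase, which starts DNA synthesis, had the largest bound. Its 1 probe lay at -9.24 in the triple null pool, not above background, against 2.57 at E9.5 and 1.30 in the MafG-intact E10.5 pool, at least 736-fold lower. The 8 other primase and polymerase genes that were measured lay between -0.11 and 0.27. A lost transcript and a lost probe match were not told apart by any test here. After Prim2 and Mafg the largest bounds on the lower side were 14.3-fold for the GABA receptor gene Gabrr2 and 9.98-fold for Speer2. Unlike Prim2 and Mafg, neither was above background in the MafG-intact E10.5 pool, at -7.59 and -6.90. Both were thus detected in the E9.5 pool alone. On the higher side the largest bounds were 23.0-fold for Fn3krp, 11.9-fold for the olfactory receptor gene Olfr558 and 11.7-fold for Fam160a1. Each of these bounds rested on 1 probe, with no second detected probe to set beside it.

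Probes of 1 gene did not always give the same difference. Of the 98 genes 66 rested on 1 probe and 32 on several, and in 23 of the 32 all probes lay on the same side of 0. Nop14, a ribosome assembly gene, differed by -2.43 on average and by 0.0066 with its brightest probe. In 18 of the 98 genes, 3 higher and 15 lower, the mean took in a probe that was not above background on an array of the pair, so its size is no exact fold. With only probes above background on both arrays, an alternative chosen after seeing the data, 83 genes passed 2-fold, of which 29 lay higher and 54 lower. Gcnt1, a glycan-branching enzyme gene, averaged -2.06 and differed by 0.17 with its brightest probe; its far probe lay at -8.77 in the triple null pool, under the background limit there. Psmb8, Arhgef6 and Txndc16, the 3 higher genes, each had a probe not above background at E9.5, at -8.14, -9.12 and -9.15. Their probes above background on both arrays differed by 0.28, 0.21 and 0.17, and with normexp the means came to 0.25, 0.26 and 0.0013. Hspb7, Mmp9, Kifc5b and the dim axon adhesion gene Cntn6 had probes that lay close together, and for Cntn6 one of them was not above background in the triple null pool.

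**Figure D4:**
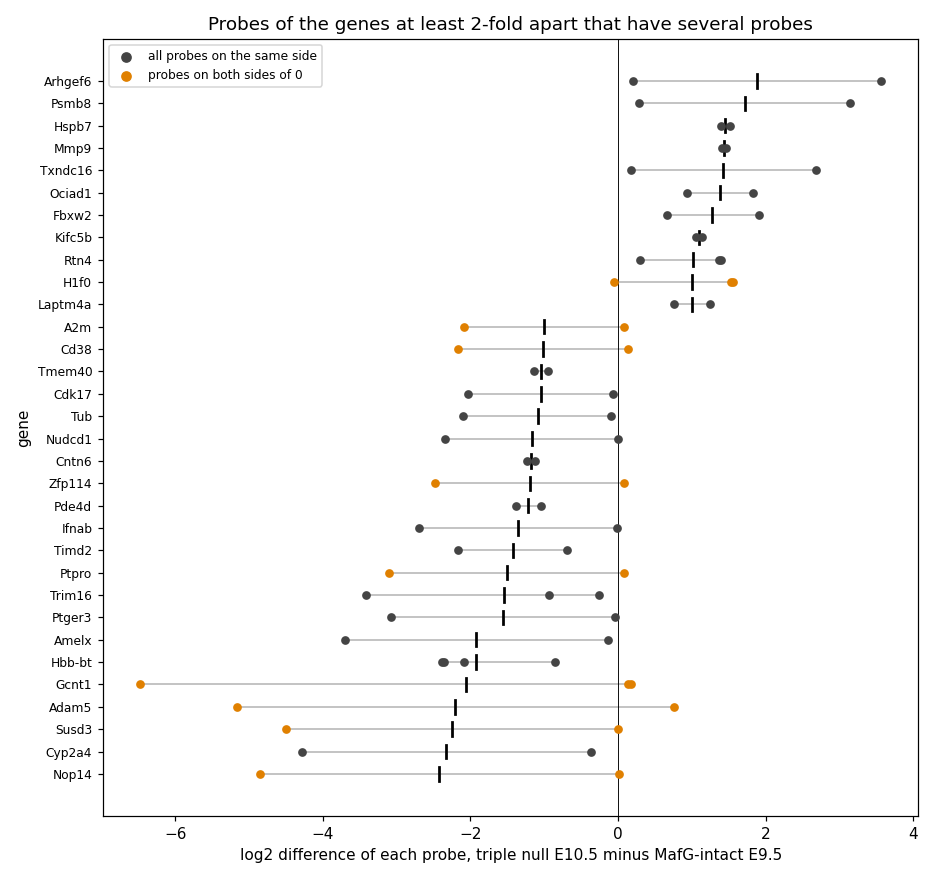
Log2 difference of each probe (triple null E10.5 minus MafG-intact E9.5) for the 32 genes at least 2-fold apart that have several probes, with the mean as a black bar. In 23 genes all probes lie on the same side of 0, and orange marks the others. For Gcnt1 and Nop14 the mean rests on 1 probe far from 0, while the probes of H1f0 lie at -0.06, 1.53 and 1.56.

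Genes around Mafg on chromosome 11 were read next. Of the 50 genes before Mafg in gene order and those after it to the chromosome's end, 67 were above background on both arrays. None was 2-fold apart and the median was 0.02. Fn3krp, 31 genes after Mafg, had levels of -2.37 in the triple null, -7.01 at E9.5, where it was not above background, and -4.48 in the MafG-intact E10.5 pool. It and its neighbour Fn3k, 32 genes after Mafg, encode enzymes that remove sugars from glycated proteins, and Fn3k differed by -0.94. Tex19.1 and Tex19.2, germ cell genes 22 and 21 genes after Mafg, were at least 4.99-fold lower and lower by a difference of -0.82. By chromosome, the share at least 2-fold apart was highest on X, with 10 of 430 genes (2.33%, 2 higher and 8 lower). Over all genes tested it was 0.783%. Chromosomes 12, with 7 of 419 (1.67%), and 17, with 1.64% of 609 genes, came next. The X genes include Arhgef6 and Amelx, whose means took in a probe not above background on an array of the pair. Their probes above background on both arrays differed by 0.21 and -0.14.

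**Figure D5:**
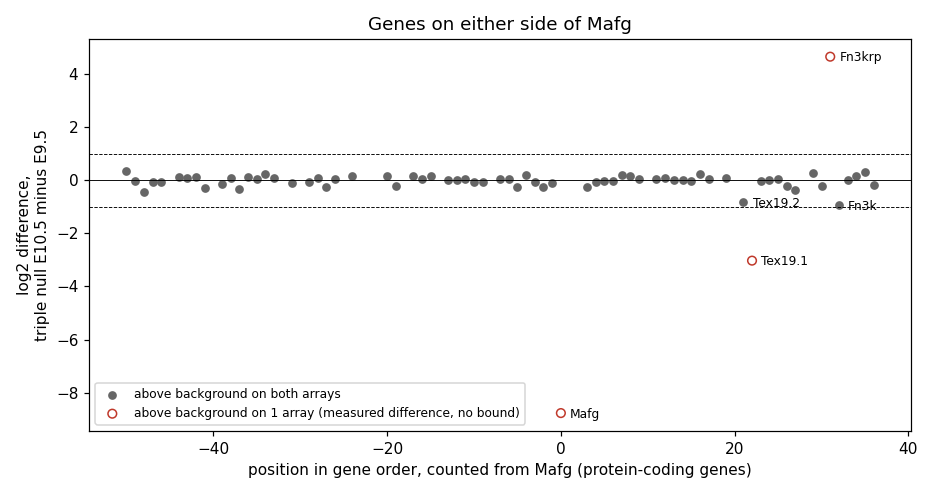
Log2 difference (triple null E10.5 minus MafG-intact E9.5) of protein-coding genes by position in gene order from Mafg, with dashed lines at 2-fold. Filled points are above background on both arrays and lie near 0, while open points, Mafg, Tex19.1 and Fn3krp, were above background on 1 array.

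The promoters of the genes 2-fold apart were searched for sites that small Maf heterodimers are known to bind, in the 250 bases before each RefSeq start in assembly GRCm38.p6 and on both strands. The letters TGACNNNGC, the core of the antioxidant response element, were in 10.2% of all 32851 promoters, in 11.6% of those of genes tested, in 3 of 28 promoters of higher genes (10.7%) and in 9 of 56 of lower genes (16.1%). The stricter letters TGACTCAGC, an NF-E2 type site and a case of the former, were in 0.39% of all promoters, in 1 of 28 of higher and in 1 of 56 of lower genes. Those 2 promoters, of Tmem40 and of Srpx2, are printed because they are the windows with the stricter letters, and both genes were named after this search. Capitals mark the letters, which lie in Srpx2 on the other strand. Tmem40 (chr6:115762467-115762716, minus strand) has them 155 bases before 1 of its starts and Srpx2 (chrX:133908175-133908424, plus strand) 61 bases before. The window at another start of Tmem40, chr6:115759000-115759249, has the core letters and not the stricter ones. This gene thus enters the 9 promoters of lower genes more than once.
Tmem40: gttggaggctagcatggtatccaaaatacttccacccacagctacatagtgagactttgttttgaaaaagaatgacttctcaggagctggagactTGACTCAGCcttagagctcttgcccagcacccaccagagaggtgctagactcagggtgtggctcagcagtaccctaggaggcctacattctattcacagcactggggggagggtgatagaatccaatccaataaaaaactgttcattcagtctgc
Srpx2: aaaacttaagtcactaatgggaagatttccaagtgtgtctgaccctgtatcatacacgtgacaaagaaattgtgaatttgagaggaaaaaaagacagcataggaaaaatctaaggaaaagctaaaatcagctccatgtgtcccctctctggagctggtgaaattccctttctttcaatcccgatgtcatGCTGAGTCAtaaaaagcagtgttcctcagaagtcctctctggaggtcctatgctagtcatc

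Tmem40, a membrane protein gene, had levels of -5.15 in the triple null, -4.10 at E9.5 and -3.14 in the MafG-intact E10.5 pool, and its probes differed by -1.14 and -0.95. Srpx2, a secreted sushi-repeat protein gene, had levels of -4.30, -5.38 and -5.14, a difference of 1.08. The genes with these letters thus lay on opposite sides of 0. With normexp they came to -0.43 and 0.37. A match in these windows describes the sequence and says nothing of binding. Hmox1 had no window in the table.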

How the data were processed

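Cy3-labelled RNA of 3 pooled whole embryos per group was hybridised to Agilent arrays, 1 per group, on 1 slide and in 1 scan. The authors deposited scanner output from Agilent Feature Extraction 9.5.3.1 (protocol GE1-v5_95_Feb07, array design 014868, build mm7), per the file headers. The processed signal in it is, per the file headers, a linear intensity with background already subtracted. The authors' deposited value table gives this intensity again to within 0.497%, linear and not centred. Its medians are 84.0 for the triple null array, 115 for MafG-intact E10.5 and 83.4 for the E9.5 array.

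From these values, log2 intensity was taken minus the 75th percentile over non-control spots of each array. Outlier spots (59, 52 and 83 in that order) were left out. Of 41174 probes 4 were lost this way, 22950 had 1 gene symbol through the RefSeq accession (assembly GRCm38.p6, names and gene order only) and 18220 had none. Probes of a gene were averaged, which gave 13184 genes above background on at least 1 array. A bound sets the bright level against the higher of the dim probe's own level and the lowest level well above background on that array. For a gene with several probes their mean was used, and such a bound is not strict. The number of arrays limits the precision. Without replicates there is no p-value.

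The members of the gene lists, the lists and the pair were chosen with earlier results of these data known. Genes named were the 12 highest and 12 lowest at or above the median level with all probes on the same side. Below that level they were the 10 highest and 10 lowest with several probes on the same side and at least 2-fold apart. Added to these were the 8 largest bounds each way, list members at least 2-fold apart or else the farthest 2, and the small Maf genes. Some of them are not reported here. Other list members are printed as examples of their list. Alternatives were quantile normalization, normexp (offset 50), scaling on spike-in probes or on detected genes' median, the deposited table, other filters, the brightest probe, other thresholds and leaving out X and Y genes. The steps were tested on simulated data. Python 3.11.15, pandas 2.3.3, numpy 2.4.6, matplotlib 3.10.9, R 4.3.3 and limma 3.58.1 were used.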

Additional observations from a re-analysis of the deposited data

Results flagged for a closer look

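Array features with no single gene symbol enter no comparison of the text. Of these, 25 had signal well above background in the triple null pool but not at E9.5, by a bound of at least 2-fold, and 55 showed the reverse. Both arrays measured 10096 such features. The triple null signal was higher by 2-fold or more for 43 and lower for 62.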

How the results depend on the processing

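The count of 98 genes at least 2-fold apart, 32 higher and 66 lower, was 27 (10 and 17) with normexp background correction, 517 (237 and 280) with no filter on dim probes and 11 (8 and 3) at or above the median level. It was 83 (29 and 54) with only probes above background on both arrays, an alternative chosen after seeing the data. At a threshold of 1.5-fold it was 379 (173 and 206) and at 3-fold 28 (5 and 23). Of the 98 genes, 93 stayed at least 2-fold apart with quantile normalization, 96 with the deposited table, 91 with scaling on the median of detected genes, 90 with scaling on spike-in probes and 75 with the brightest probe of each gene. The 98 genes kept their direction in each of these but the last, where 90 did. With the brightest probe the difference turned to 0.0752 for A2m, 0.7561 for Adam5, 0.1709 for Gcnt1, -0.0584 for H1f0, 0.0066 for Nop14, 0.0752 for Ptpro, 0.0032 for Susd3 and 0.0821 for Zfp114, and the median of the coagulation list to 0.0236. In each of these genes the probes lay on both sides of 0. The 10 spike-in probes had a median difference of 0.035 and ranged from -0.05 to 0.15. Dim genes are the limit: most genes at least 2-fold apart lay at levels where background correction alone changes the fold. No paired analysis was possible because each group had 1 array.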
